A study of Homo sapiens with 2 samples.

Results

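Epithelial cells keep their identity through a set of regulators that act against each other, and 10 of these genes were followed here in MCF-10A, an immortalised but non-tumorigenic cell line from human mammary epithelium. They were chosen by name: SNAI1, SNAI2, TWIST1 and ZEB2, which drive epithelial-to-mesenchymal transition (EMT), and OVOL1, OVOL2, GRHL1, GRHL2, GRHL3 and ESRP1, which sustain the epithelial state. All 10 had an annotated feature among the 14812 named genes of the table. A line with stable expression of EGFP-ARHGAP4, the GTPase-activating protein ARHGAP4 joined to EGFP, was set against MCF-10A cells stably expressing the EGFP vector, with 1 whole-transcript Affymetrix array of each line. Both lines therefore carry EGFP. Whether either line is a pool or a clone is not given in the labels. With 1 array of each line, no difference below has a replicate check, no p-value or standard error can be given, and values describe these 2 arrays alone.

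SNAI and ZEB proteins are zinc finger repressors that bind E-box sequences in the promoters of adhesion genes and silence them, and TWIST1 is a basic helix-loop-helix factor that works towards the same end. OVOL zinc finger proteins repress ZEB1 and so hold EMT in check, and grainyhead-like (GRHL) factors switch on junction and barrier genes. ESRP1 is no transcription factor: it is an RNA-binding protein that keeps transcripts of genes such as CD44 and FGFR2 in their epithelial splice forms. MCF-10A cells are basal-like and are known to express SNAI2 together with epithelial adhesion genes.

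Promoter sequences that may hold sites for these regulators are shown first, for GRHL3 and the adhesion gene CLDN7. These genes were shown because they have the highest differences below, among the 10 regulators and among the epithelial genes. Promoters are RefSeq sequences of build GRCh38.p14 that run from 250 bases before to 50 bases after the transcription start, 5′ to 3′ on the gene's strand. Capitals mark the E-box bound by SNAI and ZEB factors, CAGGTG or CACCTG on the other strand. GRHL3 has 2 such promoters in the table, at chr1:24319107-24319406 and chr1:24322790-24323089, both on the plus strand, and the CLDN7 promoter shown lies at chr17:7262429-7262728 on the minus strand.
GRHL3 upstream promoter: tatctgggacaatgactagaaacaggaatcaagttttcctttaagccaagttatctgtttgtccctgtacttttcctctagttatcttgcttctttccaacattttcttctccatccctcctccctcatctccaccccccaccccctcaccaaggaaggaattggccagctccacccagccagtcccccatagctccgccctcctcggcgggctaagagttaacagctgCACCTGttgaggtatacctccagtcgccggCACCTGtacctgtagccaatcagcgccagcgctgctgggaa
GRHL3 downstream promoter: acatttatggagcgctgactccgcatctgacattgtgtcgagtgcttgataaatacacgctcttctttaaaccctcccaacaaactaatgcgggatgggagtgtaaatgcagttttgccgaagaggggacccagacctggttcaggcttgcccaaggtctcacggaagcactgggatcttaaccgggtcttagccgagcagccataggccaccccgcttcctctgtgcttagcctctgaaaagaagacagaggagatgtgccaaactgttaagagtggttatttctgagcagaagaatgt
CLDN7 promoter: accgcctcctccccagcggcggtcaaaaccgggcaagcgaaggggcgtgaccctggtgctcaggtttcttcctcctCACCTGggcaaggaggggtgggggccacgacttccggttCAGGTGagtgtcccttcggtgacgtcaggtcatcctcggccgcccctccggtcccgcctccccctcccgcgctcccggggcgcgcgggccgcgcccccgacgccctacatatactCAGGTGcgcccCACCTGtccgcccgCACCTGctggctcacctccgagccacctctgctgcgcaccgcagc
The upstream GRHL3 promoter holds 2 E-boxes, the first starting 21 bases before the transcription start and the other at base 10 after it, while the downstream promoter holds none. The CLDN7 promoter shown holds 5, and the other CLDN7 promoter in the table, at chr17:7263164-7263463, holds none. Of 35116 promoters of this length in the table, 20.6% hold the E-box on either strand. For the 38 epithelial genes listed for the comparison below, 31 promoters from 23 genes were present. Of these, 19 promoters, from 17 genes, hold the E-box. The 23 genes include some that were not measured on the arrays: AP1M2, MUC1, RAB25 and SPINT1. Promoters were present for 3 of the 10 regulators, ZEB2, GRHL1 and GRHL3, 4 promoters in all, and the upstream GRHL3 promoter is the 1 of these 4 with an E-box. The grainyhead site AACCGGTT, the same on both strands, is in none of these 4 nor of the 31, and in 0.134% of all promoters. These are matches of letters, and binding was not measured.

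None of the 10 regulators differed by 2-fold between the lines, and 1 of them, GRHL3, differed by at least 0.5 on the log2 scale. Of all 14812 genes, 7.76% were called at 0.5 in either direction and 0.932% at 2-fold. A gene was called when its log2 difference, EGFP-ARHGAP4 minus EGFP vector, reached the threshold and the higher of its 2 values reached 4.02, the median of all gene values (the level filter). Among the 10 regulators, 5 passed this filter: SNAI1, SNAI2, OVOL2, GRHL3 and ESRP1. The median difference of all 10 was -0.11, beside a median of -0.03 over all genes and -0.10 over the 7685 genes past the filter. Of the 10, 3 were above 0, 6 below and 1 equal, where 41.6% of all genes were above 0 and 52.9% below. Differences ran from -0.27 for OVOL2 to 0.74 for GRHL3. In bulk RNA such as this, fewer cells that express a gene and less of its RNA per cell cannot be told apart.

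**Figure D1:**
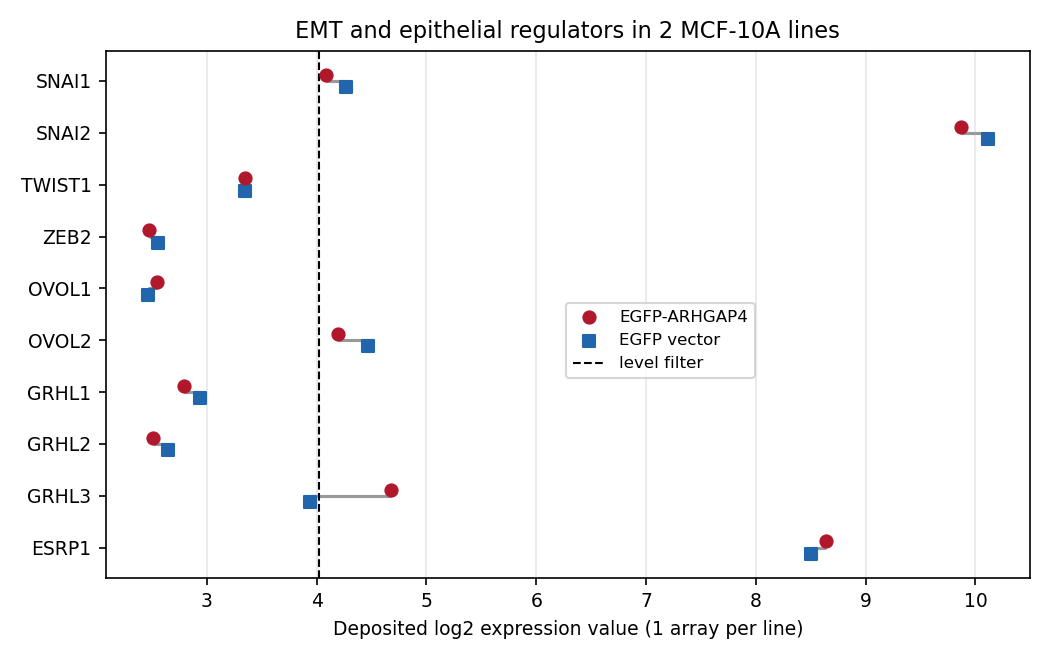
Deposited log2 expression value (x axis) of each of the 10 regulators in the EGFP-ARHGAP4 array (red circles) and the EGFP vector array (blue squares), with the level filter of 4.02 as a dashed line. The 2 symbols lie close together for every gene except GRHL3, at 4.68 in the EGFP-ARHGAP4 array and 3.94 in the EGFP vector array; positions of different genes on the axis are not comparable amounts.

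ARHGAP4 itself had a log2 signal of 6.68 in the EGFP-ARHGAP4 array, against 4.49 in the EGFP vector array, the direction the labels give. Of all genes, 77 (0.52%) were called higher at 2-fold and 61 (0.412%) lower, so 55.8% of these calls were higher. That share was 66.9% after quantile normalization, 71.3% after centring and 68.9% after loess. The 2 columns have nearly equal medians, 2.88 in both. Of the 14 mammary epithelial markers listed, 7 were measured and all 7 passed the filter in both arrays. SFN stood at 10.41 in the EGFP-ARHGAP4 array and 10.39 in the EGFP vector array. KRT14, a basal keratin, stood at 6.96 in the EGFP-ARHGAP4 array and 9.21 in the EGFP vector array. Markers of other cell types varied. Of the fibroblast markers 0 of 3 measured passed the filter in either array, and of the adipocyte markers 0 of 3. Of all 14812 genes, 7685 passed it in at least 1 array. Of 5 measured endothelial markers, 2 passed in the EGFP-ARHGAP4 array and 1 in the EGFP vector array, where KDR was at 5.63 in the EGFP-ARHGAP4 array and 3.36 in the EGFP vector array and CLDN5 differed by 0.02. Of 6 measured immune markers, 4 passed in each array, with LAPTM5 at 6.498 in the EGFP-ARHGAP4 array and 4.45 in the EGFP vector array and CD68 0.48 higher, while CD14 had 5.48 in the EGFP-ARHGAP4 array and 5.84 in the EGFP vector array and SPI1 and CD53 had equal values in both. On a linear scale the immune markers summed to 395.6 in the EGFP-ARHGAP4 array and 272.6 in the EGFP vector array, and the endothelial markers to 99.7 in the EGFP-ARHGAP4 array and 56.0 in the EGFP vector array. Most of the endothelial gap lay in KDR, and the immune gap in LAPTM5 and CD68. The fibroblast markers summed to 22.5 in the EGFP-ARHGAP4 array and 23.0 in the EGFP vector array. The mammary epithelial markers summed to 2346 in the EGFP-ARHGAP4 array and 2652 in the EGFP vector array, a gap that lay in KRT14. By gene, 5 of the 7 mammary epithelial markers were above 0 and 2 below, with a median difference of 0.02. Whether these markers have a part in the differences of the regulators was not tested.

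The EMT drivers were level or slightly lower in the EGFP-ARHGAP4 line. SNAI2, the driver that stood far above the filter, had a log2 signal of 9.87 in the EGFP-ARHGAP4 array and 10.11 in the EGFP vector array. The difference of -0.24 is a 1.18-fold lower signal, and 39.3% of all genes differed by more in one direction or the other. SNAI1, the founding member of the family and a direct repressor of E-cadherin, had 4.08 in the EGFP-ARHGAP4 array and 4.27 in the EGFP vector array, both just above the filter. Its difference of -0.19 was exceeded in size by 50.3% of genes. ZEB2 had 2.47 in the EGFP-ARHGAP4 array and 2.56 in the EGFP vector array, below the filter in both. TWIST1 had the same deposited value, 3.35, in both arrays, also below the filter. Identical values to the last digit were found in 3106 of 44629 features (6.96%), so such ties were common in the deposited table. Of these 4 drivers 0 were above 0 and 3 below, where 41.6% of all genes were above 0 and 52.9% below. Their median was -0.14, beside -0.03 over all genes and -0.10 over genes past the filter. The ZEB2 difference of -0.08 changed sign, to 0.02, when the arrays were centred.

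The other ZEB gene, ZEB1, is the target through which OVOL proteins are best known to act, and it lies on the short arm of chromosome 10, where its neighbours were lower in the EGFP-ARHGAP4 array. ZEB1 had 3.09 in the EGFP-ARHGAP4 array and 3.88 in the EGFP vector array, a difference of -0.79, with both values below the filter. Its 24 nearest genes past the filter on the chromosome, 12 on each side, had a median of -0.84. ZEB1 was thus no lower than its neighbourhood, where 9 of the 24 genes had a higher difference. None of the 10 regulators lies on chromosome 10.

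The epithelial regulators differed in both directions, 3 above 0 and 3 below, where 41.6% of all genes were above 0 and 52.9% below. GRHL3, a factor of epidermal differentiation and barrier formation, had a log2 signal of 4.68 in the EGFP-ARHGAP4 array and 3.94 in the EGFP vector array. The difference of 0.74 is a 1.67-fold higher signal, and 212 of all genes (1.43%) had a higher difference. The EGFP vector value lay just below the filter and the EGFP-ARHGAP4 value above it, so GRHL3 passed through the array in which it was high, and its fold is approximate. The differences of its paralogs were smaller, at -0.15 and -0.13. GRHL1 had 2.79 in the EGFP-ARHGAP4 array and 2.94 in the EGFP vector array. GRHL2, the grainyhead-like factor best known for sustaining E-cadherin and claudin expression in breast epithelium, had 2.51 in the EGFP-ARHGAP4 array and 2.64 in the EGFP vector array. Both lay below the filter in both arrays, where background may compress a difference.

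ESRP1 was expressed far above the filter in both lines. Its log2 value was 8.63 in the EGFP-ARHGAP4 array and 8.50 in the EGFP vector array, a difference of 0.13 or 1.10-fold, and 26.3% of genes had a higher difference. OVOL2 had 4.19 in the EGFP-ARHGAP4 array and 4.46 in the EGFP vector array, the lowest difference of the 10 at -0.27, or 1.21-fold lower. OVOL1 averaged 2.55 in the EGFP-ARHGAP4 array and 2.46 in the EGFP vector array over its 2 features, below the filter. Those 2 features disagreed. Feature 16727074 had 2.56 in the EGFP-ARHGAP4 array and 2.68 in the EGFP vector array, a difference of -0.12. Feature 16740546 had 2.53 in the EGFP-ARHGAP4 array and 2.25 in the EGFP vector array, a difference of 0.29. OVOL1 therefore has no settled direction. The other 9 regulators rest on 1 feature each. For scale, the between-array differences of features spread around the mean of their gene with a pooled SD of 0.21. This covers 336 genes past the filter that have more than 1 feature. The differences of SNAI2 and OVOL2 are slightly larger than this SD, that of GRHL3 is well beyond it, and the other 7 lie inside it. Of those 7, TWIST1, ZEB2, OVOL1, GRHL1 and GRHL2 lie below the filter, where the SD was not measured. That SD describes agreement between features on the same arrays and not the spread between cultures.

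**Figure D2:**
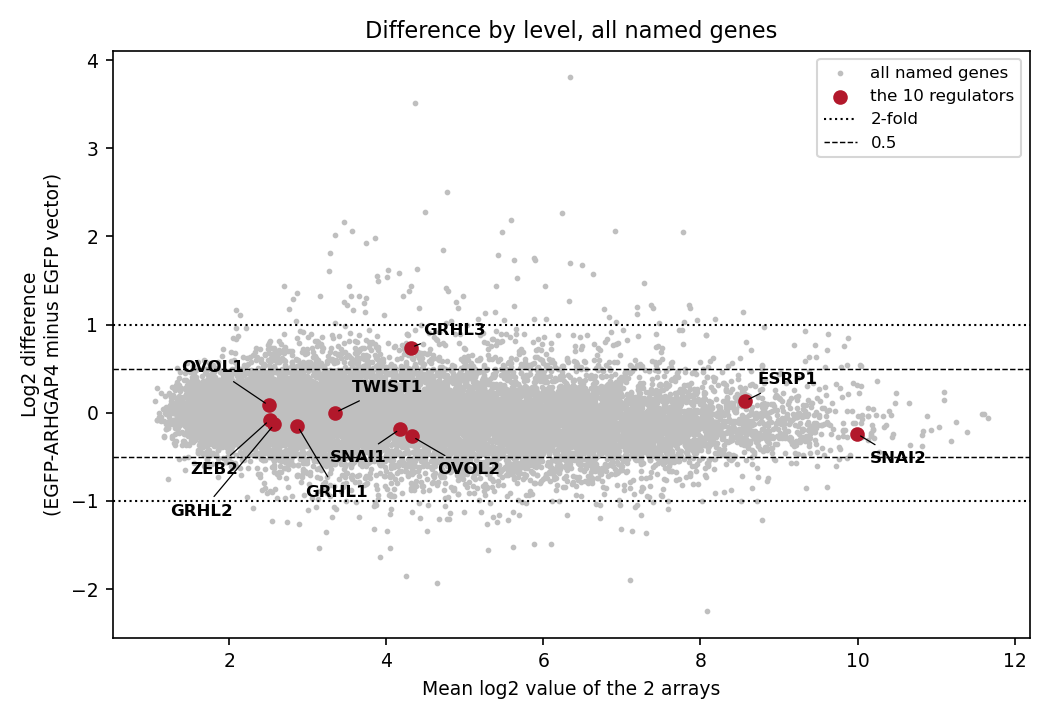
Log2 difference, EGFP-ARHGAP4 minus EGFP vector (y axis), against the mean log2 value of the 2 arrays (x axis) for all 14812 named genes in grey and the 10 regulators in red; dashed and dotted lines mark differences of 0.5 and 2-fold. GRHL3 at 0.74 is the 1 regulator beyond the dashed lines, and the other 9 lie within the grey band of genes around them.

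Because the spread of differences depends on level, each regulator was also set beside genes of like level, taken from 10 classes of equal size by mean value. GRHL3, SNAI1 and OVOL2 fell in the same class, in which the 10th and 90th percentiles of the differences were -0.47 and 0.37. GRHL3 lay above that range, with 2.09% of its class higher, while SNAI1 and OVOL2 lay inside it. For SNAI2 and ESRP1, in the top class, the range was -0.46 to 0.26 around a median of -0.13. ESRP1 lay in the upper part of it, with 18.4% of the class higher, and SNAI2 in the lower part, with 33.3% of the class lower. ZEB2, OVOL1, GRHL1 and GRHL2 shared a class with a range of -0.32 to 0.37, and TWIST1 lay in one with a range of -0.36 to 0.37. All 5 were inside.

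Position along the chromosome was examined in the same way, because neighbouring genes differed together on some chromosomes in these arrays. The 24 nearest genes of GRHL3 past the filter had a median of -0.12, and 0 of the 24 had a higher difference than GRHL3. For ESRP1 the neighbourhood median was -0.23, with 2 of 24 genes higher. SNAI2 and GRHL2, on chromosome 8 like ESRP1, had neighbourhood medians of -0.18 each, close to their own differences of -0.24 and -0.13. OVOL2 at -0.27 lay beside a neighbourhood median of -0.22 and SNAI1 at -0.19 beside -0.10, both on chromosome 20. GRHL1 and ZEB2, on chromosome 2, had medians of -0.20 over 23 genes and -0.10 over 24. The neighbours of OVOL1 on chromosome 11 centred on 0.02, and those of TWIST1 on chromosome 7 on -0.18.

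**Figure D3:**
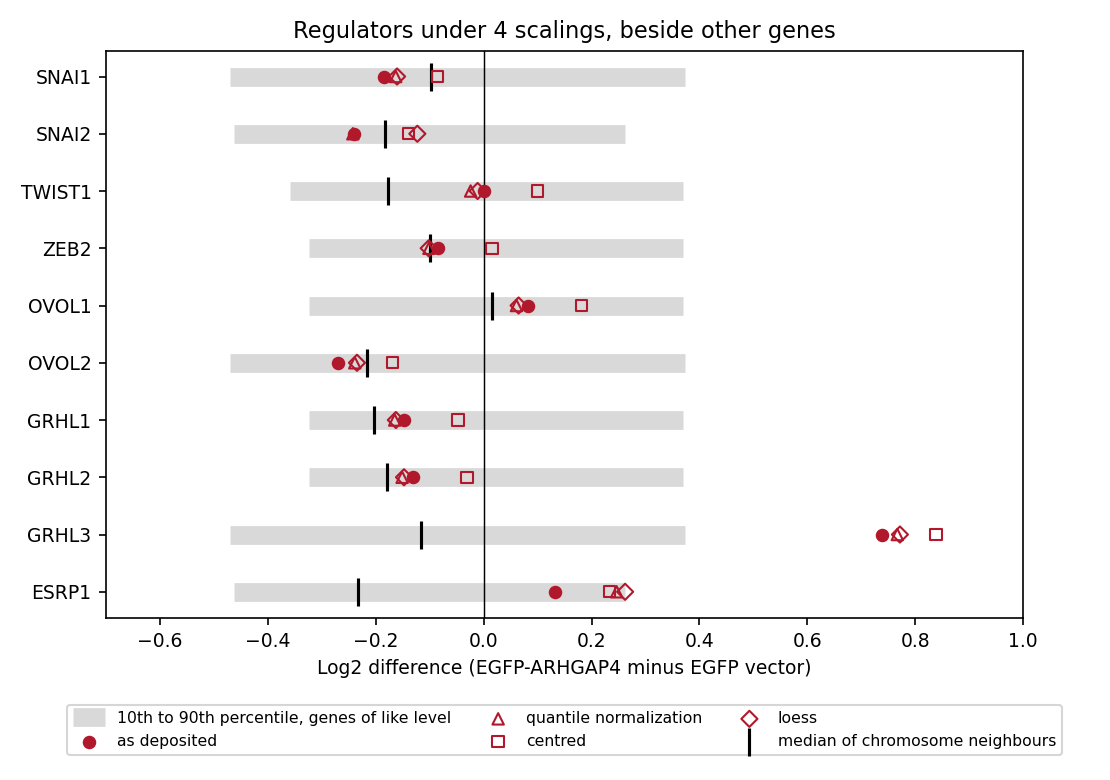
Log2 difference, EGFP-ARHGAP4 minus EGFP vector (x axis), of each regulator as deposited (filled circles) and after quantile normalization, centring and loess (open symbols), over the 10th to 90th percentile of genes of like level (grey bars) and beside the median of chromosome neighbours (black ticks). GRHL3 lies between 0.74 and 0.84 under all 4 scalings, to the right of its grey bar. The grey bars and black ticks come from the deposited values and were not recomputed after rescaling. Only the filled circles are therefore like for like with them. As deposited, the other 9 regulators lie within their bars. After loess ESRP1, at 0.262, lies at the upper end of its deposited bar, 0.261.

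Beyond these 10, other regulators of the same 2 states were mixed. Of 22 further EMT transcription factors listed, 16 were measured, with a median of -0.11. FOXQ1, a forkhead factor that promotes EMT, was the 1 of 16 called higher at 0.5, where 2.67% of all genes were, and 0 were called lower, where 5.09% of all genes were. It had 4.64 in the EGFP-ARHGAP4 array and 4.13 in the EGFP vector array. The chromatin protein gene HMGA2 had 5.997 in the EGFP-ARHGAP4 array and 6.40 in the EGFP vector array. KLF8, a Krüppel-like repressor, differed by -0.45, and SOX9, a progenitor factor of breast epithelium, by 0.42. TWIST2, the paralog of TWIST1, had 4.14 in the EGFP-ARHGAP4 array and 4.47 in the EGFP vector array.

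Of 21 further epithelial regulators 14 were measured, with a median of -0.17. In this list 2 genes were called higher at 0.5 and 3 lower, against 2.67% and 5.09% of all genes, and none reached 2-fold, against 0.932%. EHF, an epithelial ETS factor, had 5.66 in the EGFP-ARHGAP4 array and 4.94 in the EGFP vector array, and KLF4, a factor of epithelial differentiation, 4.71 in the EGFP-ARHGAP4 array and 4.21 in the EGFP vector array. Among the lower genes, GATA3, the master factor of luminal breast cells, had 4.71 in the EGFP-ARHGAP4 array and 5.37 in the EGFP vector array. GATA3 lies on the short arm of chromosome 10 like ZEB1, and its 24 neighbours had a median of -0.71, beside its own -0.66. UBP1, a distant relative of the grainyhead-like factors, differed by -0.64, and TFAP2C, an AP-2 factor of mammary epithelium, by -0.54. ESRP2, the paralog and partner of ESRP1 in splicing, had 8.095 in the EGFP-ARHGAP4 array and 8.13 in the EGFP vector array, a difference of -0.03 that became positive under each of the 3 other scalings.

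**Figure D4:**
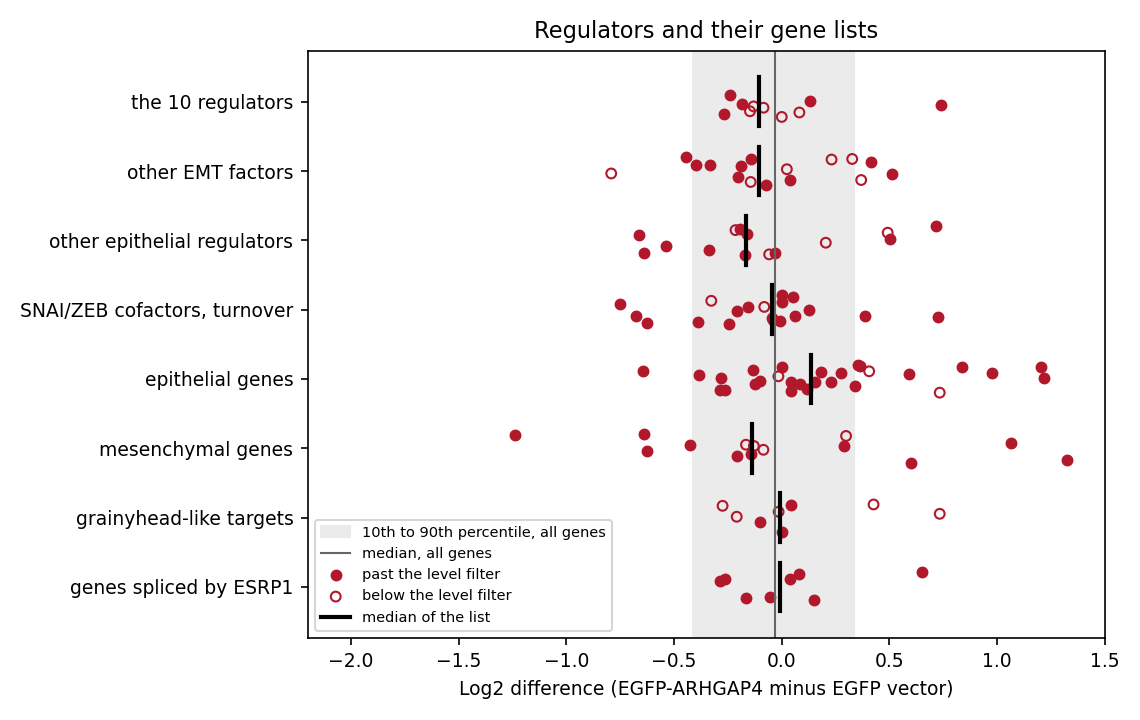
Log2 difference, EGFP-ARHGAP4 minus EGFP vector (x axis), of every measured gene in the 10 regulators and in each list (rows), filled where past the level filter and open where below it, with the list median as a black bar over the 10th to 90th percentile of all genes, -0.41 to 0.34, in grey. Epithelial genes centre on 0.14 with a tail to 1.22, the mesenchymal genes spread both ways, and the regulators centre on -0.11.

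SNAI and ZEB proteins act through corepressors and are removed by ubiquitin ligases, and 19 of 23 such genes listed were measured, with a median of -0.04. The sign of that median turned under all 3 other scalings. EZH2, the histone methyltransferase of Polycomb repression, had 6.38 in the EGFP-ARHGAP4 array and 7.06 in the EGFP vector array. WTIP, a LIM protein of the Ajuba family that binds SNAI proteins, had 5.25 in the EGFP-ARHGAP4 array and 5.999 in the EGFP vector array. FBXO11, a ubiquitin ligase subunit that acts on SNAI1, differed by -0.63. These 3 of 19 were called lower at 0.5, against 5.09% of all genes. Of the 19, 17 passed the filter and could be called, but only 7685 of all 14812 genes. BTRC, the ligase subunit that recognises phosphorylated SNAI1, was the 1 called higher, against 2.67% of all genes, at 0.73, in a part of chromosome 10 where its neighbours had a median of 0.30. The corepressor genes CTBP1 and CTBP2 had equal deposited values in both arrays.

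Of the genes that these regulators act on, the listed epithelial genes were more often higher than lower. The list was chosen with earlier results of these data known, so its counts describe the list and are no test. Of 38 listed, 28 were measured, and CDH1, the classic target, was not among them. Their median was 0.14, with 18 above 0 and 9 below, where 41.6% of all genes were above 0 and 52.9% below. At 0.5, 5 of 28 were called higher and 1 lower, against 2.67% and 5.09% of all genes, and at 2-fold 2 were called higher and 0 lower, against 0.52% and 0.412%. Of the 28, 25 passed the filter and could be called, but only 7685 of all 14812 genes, so these shares are not like for like. CLDN7, whose promoter is shown above, had 8.46 in the EGFP-ARHGAP4 array and 7.24 in the EGFP vector array, 2.33-fold higher. EPCAM had 7.79 in the EGFP-ARHGAP4 array and 6.58 in the EGFP vector array. CLDN1 and the surface glycoprotein gene CD24 differed by 0.97 and 0.84, and OCLN, the occludin gene, by 0.59. CDS1, an enzyme of phospholipid synthesis, was the 1 called lower, at -0.64. Of these named genes besides CLDN7, CLDN1 has 0 E-boxes in its promoter, and no EPCAM promoter was present. CD24 has a promoter with 1 and others with 0, and the OCLN promoters hold 1 and 2. The promoter of CDS1, the lower gene, holds 1. Whether E-boxes in a promoter go with the difference of its gene was not tested.

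Mesenchymal genes went both ways. Of 32 listed, 14 were measured, with a median of -0.14. At 0.5, 3 were called higher and 3 lower, and at 2-fold 2 higher (S100A4 and FN1) and 1 lower (FSTL1). Of all genes, 2.67% were called higher and 5.09% lower at 0.5, and 0.52% and 0.412% at 2-fold. S100A4, a calcium-binding protein known from motile cells, had 4.88 in the EGFP-ARHGAP4 array and 3.56 in the EGFP vector array. S100A4 thus passed the filter through the array in which it was high, and its fold is approximate. FN1, fibronectin, had 8.72 in the EGFP-ARHGAP4 array and 7.66 in the EGFP vector array. FSTL1, a secreted follistatin-like glycoprotein, had 4.79 in the EGFP-ARHGAP4 array and 6.03 in the EGFP vector array. VIM, the intermediate filament vimentin, had 6.59 in the EGFP-ARHGAP4 array and 7.23 in the EGFP vector array over 3 features, in a part of chromosome 10 where its neighbours had a median of -0.96. The proteoglycan gene BGN and the matrix crosslinking enzyme gene LOX differed by 0.60 and -0.63.

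**Figure D5:**
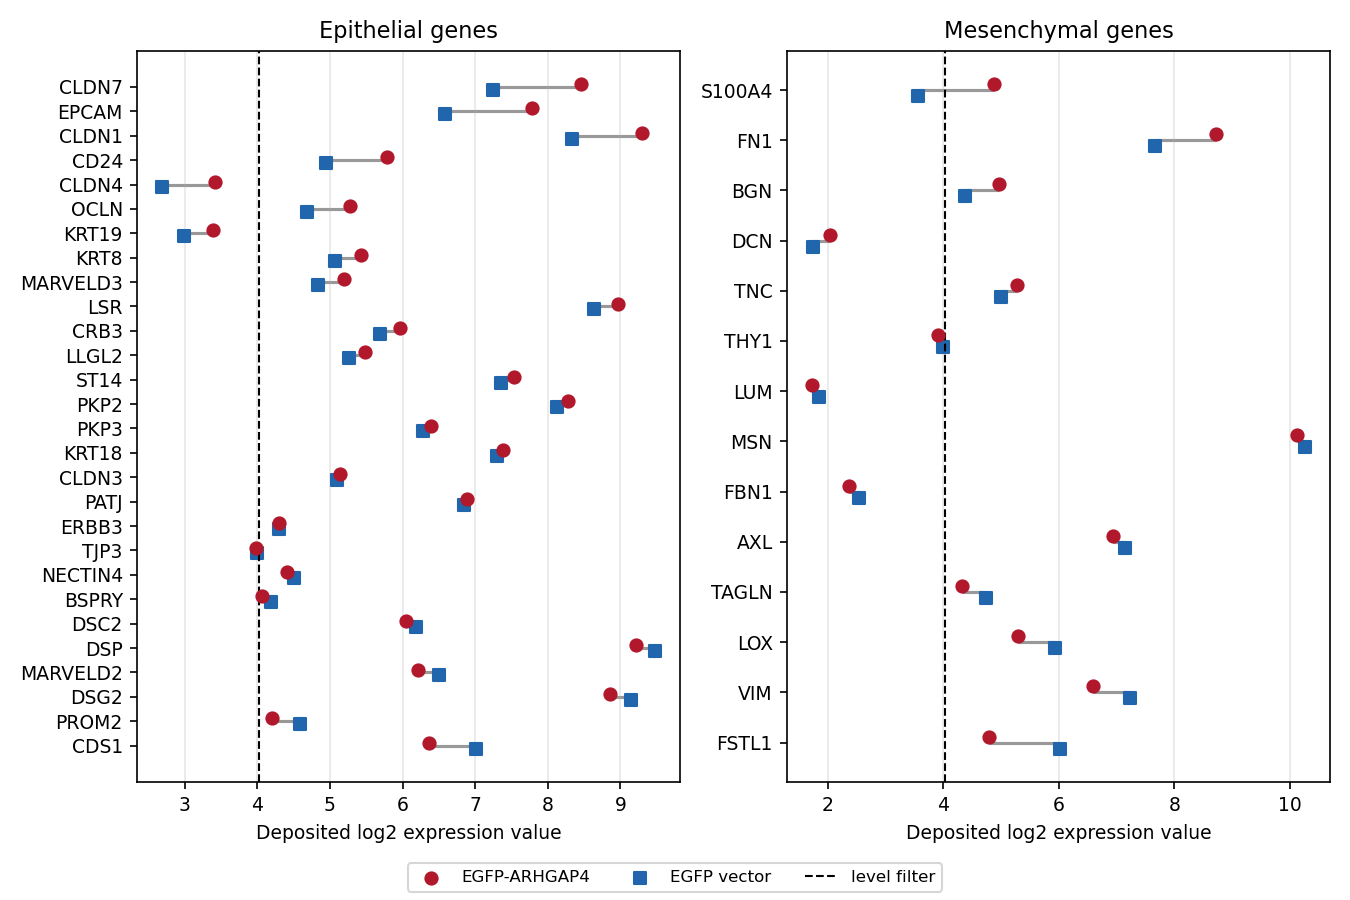
Deposited log2 expression value (x axis) of the 28 measured epithelial genes (left) and the 14 measured mesenchymal genes (right) in the EGFP-ARHGAP4 array (red circles) and the EGFP vector array (blue squares), ordered by difference, with the level filter dashed. CLDN7 and EPCAM head the epithelial panel at 1.22 and 1.20, while the mesenchymal panel runs from S100A4 at 1.32 to FSTL1 at -1.24.

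Genes tied to GRHL3 and ESRP1 by name were few on the array. Of 13 reported targets of grainyhead-like factors 8 were measured and 3 passed the filter, with 0 of 8 called at 0.5 in either direction, against 7.76% of all genes, and a median of -0.01. With 3 genes able to be called, that count says little about the targets. CLDN3 differed by 0.04 and NECTIN4 by -0.10, while ERBB3 had the same value in both arrays. CLDN4, a claudin that GRHL2 is known to activate, was 0.73 higher but below the filter in both arrays, at 3.42 in the EGFP-ARHGAP4 array and 2.69 in the EGFP vector array. Of 13 genes spliced by ESRP1, 8 were measured and all 8 passed the filter. FGFR2 had 4.02 in the EGFP-ARHGAP4 array and 3.37 in the EGFP vector array. It was the 1 of 8 called at 0.5, against 7.76% of all genes. It passed the filter through the EGFP-ARHGAP4 array alone, with a value at the filter, and its neighbours on chromosome 10 had a median of 0.25. CD44 had 9.26 in the EGFP-ARHGAP4 array and 9.32 in the EGFP vector array. These are gene totals, and splice forms were not measured.

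The microRNAs that restrain ZEB1 and ZEB2 were added after their values were seen. The miR-200 family falls into a pair of seed groups, and miR-205 has a seed of its own. The mature RefSeq sequences are shown 5′ to 3′ with the seed, bases 2 to 8, in capitals, because the seed decides which sites in the ZEB messages a family member pairs with.
hsa-miR-200b-3p: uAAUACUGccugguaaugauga
hsa-miR-200c-3p: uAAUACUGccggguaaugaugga
hsa-miR-429: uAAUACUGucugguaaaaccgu
hsa-miR-200a-3p: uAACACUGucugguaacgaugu
hsa-miR-141-3p: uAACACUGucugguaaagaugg
hsa-miR-205-5p: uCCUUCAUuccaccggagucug
The array features are annotated to the precursors, so the mature forms were not measured. The MIR200C precursor had 4.09 in the EGFP-ARHGAP4 array and 2.83 in the EGFP vector array, a difference of 1.26 that passed the filter through the EGFP-ARHGAP4 array alone. Of all genes, 0.338% had a higher difference than MIR200C. MIR141, the neighbour of MIR200C on chromosome 12, had 4.10 in the EGFP-ARHGAP4 array and 3.77 in the EGFP vector array. It also passed the filter through the EGFP-ARHGAP4 array alone, and 10.2% of genes had a higher difference. MIR200A, MIR200B and MIR429, on chromosome 1, stayed below the filter in both arrays, with differences of 0.26, 0.27 and -0.12. MIR205 had 9.63 in the EGFP-ARHGAP4 array and 9.04 in the EGFP vector array, 1.51-fold higher, and 2.72% of genes had a higher difference. ZEB2, as given above, was below the filter in both lines.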

How the data were processed

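RNA of 2 MCF-10A samples was hybridised to Affymetrix whole-transcript arrays, 1 per sample, after sense cDNA synthesis and biotin labelling, per the labels' protocols. Samples were grouped by the genotype in their labels. The authors deposited 1 normalized log2 value per feature and array. The sources used here do not name the summarisation or the normalization. The base of the log was read from the values: the highest, 12.8, exceeds 11.1, the natural log of a 16-bit reading. Any overall difference in RNA content would be lost in a common scaling. The number of arrays limits the precision.

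The 2020 platform annotation gave 1 symbol to 15835 of 44629 features, none several and 28794 no symbol; all 15835 matched the GRCh38.p14 RefSeq table by Entrez identifier. That table gave chromosomes and gene order. Log2 values of features sharing a symbol were averaged to 14812 genes. Medians of lists cover all measured members, and calls also need the level filter. The same calls over all 14812 genes give the background. Of these genes 7685 passed the filter, so a list with a larger share past it had more genes able to be called. The members and lists were chosen with earlier results of these data known. All 10 members are named, with up to 4 genes past the filter with the largest absolute difference per pathway list and up to 2 per marker list. TWIST2, ESRP2, KLF4, OCLN, CDS1, CLDN4, CD44, LOX, BGN, CTBP1, CTBP2, SFN, CD14, SPI1, CD53, ZEB1 and the microRNA precursors were chosen after their values were seen.

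Alternatives were quantile normalization, centring, removal of a loess curve (span 0.3), the feature with the highest level, other filters and thresholds, and leaving out chromosome 10. Tools were numpy 2.4.6, pandas 2.3.3, matplotlib 3.10.9 and statsmodels 0.14.6 under Python 3.11.15, and the calculations were tested on simulated data.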

Additional observations from a re-analysis of the deposited data

How the results depend on the processing

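No paired analysis was possible because each line has 1 array, and for the same reason no array could be left out or compared with others of its group. For single differences and medians, a move under 0.21, the pooled SD of feature differences around the mean of their gene, was taken as no change. Such moves are given as ranges. The GRHL3 difference lay between 0.74 and 0.84, SNAI2 between -0.24 and -0.12 and ESRP1 between 0.13 and 0.26. Signs turned for ZEB2 after centring and for OVOL1 with its highest feature; TWIST1 lay between -0.02 and 0.10. Medians near 0 also turned sign: that of the other EMT factors after loess, those of the cofactors and of the genes spliced by ESRP1 after all 3 scalings, and that of the grainyhead-like targets after centring or loess. The median of the 10 regulators ranged from -0.13, also its value without GRHL3 (chosen after seeing the data), to -0.01.

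Regulators called at 0.5 numbered 0 with the filter at the 0.75 quantile, and 1 regulator was called at 1.5-fold. Genes at least 2-fold lower numbered 37 after centring, 38 without chromosome 10 and 35 with the stricter filter, which left 39 higher; 277 were higher and 495 lower at 1.5-fold, 25 and 5 at 3-fold. Other EMT factors higher by 0.5 numbered 2 after quantile normalization, centring or loess and 0 with the stricter filter, and 1 was lower with no filter. Cofactors higher by 0.5 numbered 2 after quantile normalization or loess and 0 without chromosome 10. Of genes spliced by ESRP1, 0 were higher without chromosome 10 or with the stricter filter. The stricter filter also left 0 higher and 1 lower among other epithelial regulators, and 3 epithelial and 1 mesenchymal gene higher. The mesenchymal median there was -0.42, taken over only the genes past that filter, while the -0.14 above covers all 14 measured. With no filter, 1 grainyhead-like target was higher. The share of all genes called at 0.5 was not computed under these other settings, so these counts have no background beside them. Under the filters and without chromosome 10 the set of eligible genes changed, and at 1.5-fold and 3-fold the threshold did; under the scalings the cause was not tested. Background may compress differences at low level, which was not tested and limits TWIST1, ZEB2, OVOL1, GRHL1 and GRHL2.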
